A study of Mus musculus with 12 samples.

Results

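Metallothionein, zinc transporter and zinc sensor genes were followed through 12 retinal RNA-seq libraries. The members were named by symbol and were not picked by a threshold on their values: the metallothioneins Mt1, Mt2 and Mt3, the zinc exporters Slc30a1 and Slc30a3, the importer Slc39a14 and the transcription factor Mtf1. All 7 were found among the 54532 gene identifiers of the count and FPKM tables, of which 34538 had a count in some library. All 7 passed the filter on low counts that left 18299 genes for testing, although Mt2 passed it mainly through its counts in GV16, as described with its values.

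The mice were wild-type C57BL/6 animals, 13 weeks old when their retinas were taken, in 4 groups of 3 libraries. SHAM was the sham control. The MOG group was immunized at 8 weeks of age with MOG35-55 peptide in complete Freund's adjuvant with mycobacterium, together with pertussis toxin, which induces experimental autoimmune encephalomyelitis with optic neuritis. The GB20 and GV16 groups had the same immunization and then, from 3 weeks after it, needling under xylazine and ketamine at the acupoint GB20 or at the control acupoint GV16, every 3 days for 2 weeks. The MOG group therefore lacked both the needling and, as far as the methods say, its anaesthesia, and the effects of these cannot be told apart. The needled groups differed from SHAM in the immunization as well, and these effects cannot be told apart either. Whether the SHAM mice received adjuvant, pertussis toxin or anaesthesia is not described. All mice were female. The experiment was repeated 3 times with 2 or 3 mice a group, and it is not stated whether a library pools the retinas of several mice, so the p-values measure the spread between libraries. Total counts ran from 15860278 to 19194280 per library. SHAM library 2 stood apart from the other SHAM libraries in its counts, and Mt1 is given with and without it.

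Metallothioneins are small cytosolic proteins in which clusters of cysteines hold zinc and copper, and they buffer free zinc and scavenge oxidants. When free zinc rises, the zinc-finger factor MTF-1 binds metal response elements in the promoters of metallothionein genes and of the exporter ZnT1 and activates them; glucocorticoids and cytokines acting through STAT3 also raise Mt1 and Mt2. In the retina, zinc is abundant in photoreceptors and in the pigment epithelium, and metallothioneins are known from Müller glia, astrocytes and pigment epithelium and respond to injury.

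The metallothionein genes lie side by side on chromosome 8 (GRCm38, GENCODE vM21), all on the plus strand. Mt3 (ENSMUSG00000031760) spans chr8:94152607-94154146, Mt2 (ENSMUSG00000031762) chr8:94172664-94173568 and Mt1 (ENSMUSG00000031765) chr8:94179082-94180327. The protein-coding parts are shown because they carry the cysteines that bind metal and because their likeness bears on how reads can be assigned; cysteine codons are in capitals, in each case 20, of 61 codons in Mt1 and Mt2 and of 68 in Mt3.
Mt1 coding sequence: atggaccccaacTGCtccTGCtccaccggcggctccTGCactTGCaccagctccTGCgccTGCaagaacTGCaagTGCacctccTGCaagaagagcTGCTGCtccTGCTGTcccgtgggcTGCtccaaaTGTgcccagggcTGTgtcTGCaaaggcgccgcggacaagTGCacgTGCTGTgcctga
Mt2 coding sequence: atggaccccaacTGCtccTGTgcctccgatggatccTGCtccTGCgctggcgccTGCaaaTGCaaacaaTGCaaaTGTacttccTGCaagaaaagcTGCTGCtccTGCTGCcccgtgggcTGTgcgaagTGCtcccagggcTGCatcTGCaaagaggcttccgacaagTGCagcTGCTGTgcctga
Mt3 coding sequence: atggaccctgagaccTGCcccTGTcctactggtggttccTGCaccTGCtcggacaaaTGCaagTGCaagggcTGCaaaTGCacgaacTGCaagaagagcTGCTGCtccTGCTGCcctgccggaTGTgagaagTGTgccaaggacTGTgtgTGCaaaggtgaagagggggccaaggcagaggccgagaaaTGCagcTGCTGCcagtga
Mt1 and Mt2 were identical at 79.6% of 186 aligned bases, and Mt1 and Mt3 at 65.2% of 207 aligned columns. The longest stretch shared without a difference was 20 bases between Mt1 and Mt2 and 27 bases between Mt1 and Mt3, far shorter than the paired reads the methods describe.

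The promoters of Mt1 and Mt2 are shown because they hold the letters that MTF-1 is known to bind. The windows (RefSeq, GRCm38.p6) cover 250 bases before to 50 bases after the RefSeq start site, chr8:94178839-94179138 for Mt1 and chr8:94172368-94172667 for Mt2, both on the plus strand. These start sites differ from the GENCODE gene starts given above, and the Mt2 window ends just past the GENCODE start of Mt2. Capitals mark matches to the metal response element cores TGCACNC and TGCGCNC on either strand.
Mt1 promoter: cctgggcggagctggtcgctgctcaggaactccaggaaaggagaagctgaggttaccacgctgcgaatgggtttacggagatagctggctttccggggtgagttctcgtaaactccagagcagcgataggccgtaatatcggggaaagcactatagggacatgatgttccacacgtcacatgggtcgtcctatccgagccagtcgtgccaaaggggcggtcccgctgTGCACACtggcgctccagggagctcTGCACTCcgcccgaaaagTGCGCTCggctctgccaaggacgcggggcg
Mt2 promoter: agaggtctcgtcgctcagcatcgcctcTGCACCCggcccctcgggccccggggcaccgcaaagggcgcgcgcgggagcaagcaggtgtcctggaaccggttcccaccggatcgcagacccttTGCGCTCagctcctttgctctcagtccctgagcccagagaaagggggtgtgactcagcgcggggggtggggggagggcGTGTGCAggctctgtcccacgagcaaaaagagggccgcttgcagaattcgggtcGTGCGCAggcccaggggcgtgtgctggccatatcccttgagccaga
The Mt1 window held 3 matches and the Mt2 window 4, against 1 or more in 25.7% of all 32851 promoter windows of this length, 3 or more in 1.97% and 4 or more in 0.52%. Among the other members, the window of Slc30a1 held 2 matches and that of Mt3 held 1. Of the 2 windows of Slc30a3 only the upstream one held a match, and that of Mtf1 held 0. A match gives letters in a window and does not show that the factor was bound in these retinas. Slc39a14 has no window in the table used.

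Mt1 was the most abundant of these zinc genes per merged exon length, and its level was higher in the needled retinas than in SHAM or MOG, although the difference did not pass the genome-wide threshold. Its normalised read count (CPM, scaled to library size with TMM factors) was 37.6, 43.6 and 29.6 in the SHAM libraries, 42.5, 47.5 and 44.1 in those of MOG, 55.5, 71.0 and 48.4 in those of GB20 and 53.1, 65.4 and 56.2 in those of GV16. All 6 needled libraries lay above all 6 libraries of SHAM and MOG, while SHAM and MOG overlapped. This split was seen in the values, and the share of all genes that show it was not computed. For single pairs of groups, libraries were apart for 12.7% (GB20) and 14.5% (GV16) of all genes tested against SHAM. Against MOG they were apart for 15.7% (GB20) and 12.6% (GV16). In GB20 the lowest library (48.4) was barely above the highest MOG library (47.5). The group means were 36.9 ± 7.03 in SHAM, 44.7 ± 2.56 in MOG, 58.3 ± 11.6 in GB20 and 58.2 ± 6.4 CPM in GV16 (SD, n = 3), so the needled groups were level with each other.

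The fitted Mt1 level was 1.58-fold that of SHAM in GB20 (log2 fold change 0.66, SE 0.147, 95% confidence interval 0.344 to 0.975, adjusted p = 0.0834 by edgeR, quasi-likelihood F test, Benjamini-Hochberg) and also 1.58-fold in GV16 (log2 fold change 0.66, SE 0.147, interval 0.341 to 0.975, adjusted p = 0.0693 by edgeR). Against MOG it was 1.30-fold in each, with a log2 fold change of 0.38 in GB20 (SE 0.145, adjusted p = 0.509 by edgeR) and of 0.38 in GV16 (SE 0.146, adjusted p = 0.83 by edgeR). The needling sites differed by a log2 fold change of 0.0016 (SE 0.144, interval -0.308 to 0.311), which leaves room for a difference of up to 1.24-fold in either direction. MOG against SHAM gave 0.28 (SE 0.148, interval -0.042 to 0.596, adjusted p = 0.458 by edgeR), and it moved to 0.42 without SHAM library 2 and to 0.14 without SHAM library 3. These comparisons share the SHAM or the MOG libraries and are not independent of each other.

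**Figure D1:**
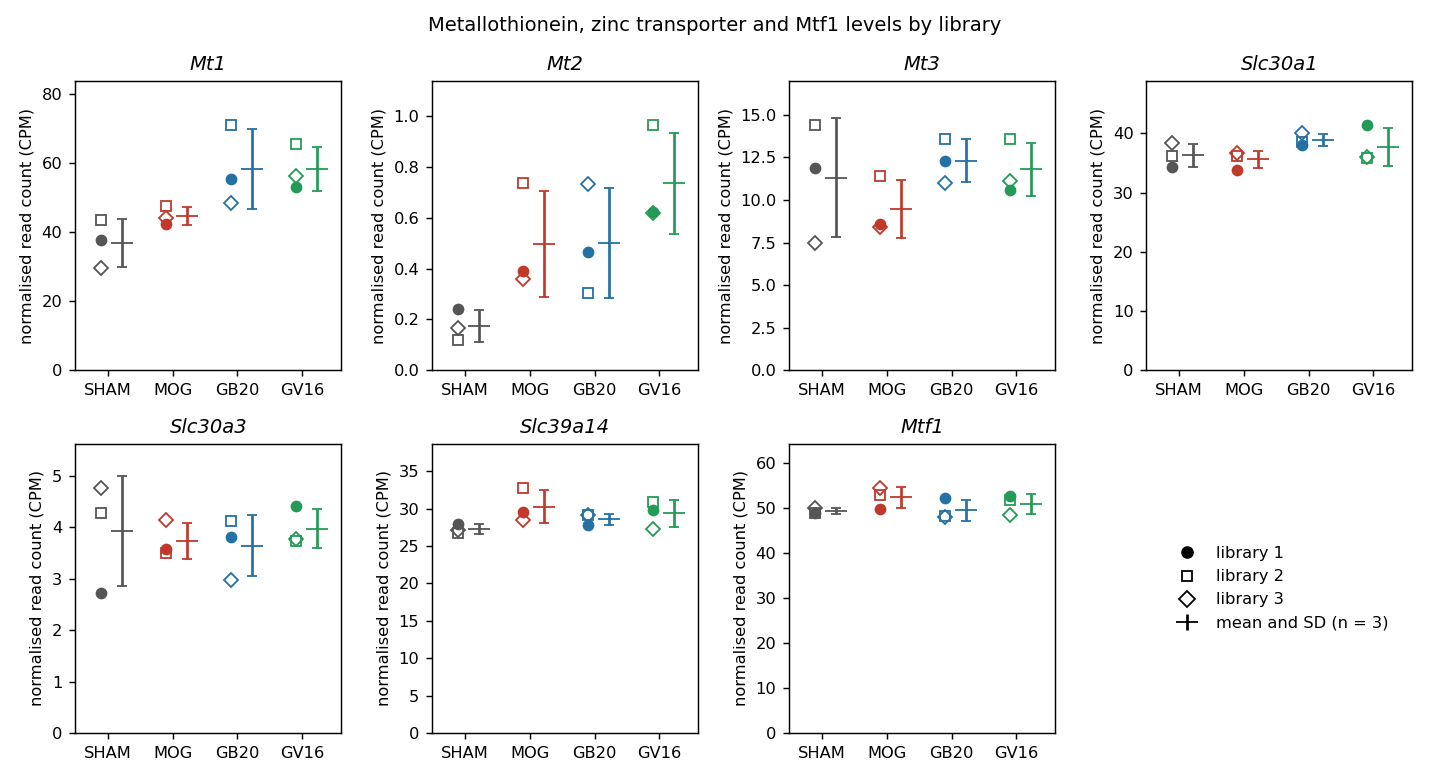
Normalised read count (CPM, linear axis from 0) of each of the 7 genes in each library, by group; symbols tell the libraries of a group apart and the bar gives mean and SD (n = 3). For Mt1 the needled libraries lie between 48.4 and 71.0 CPM, above the SHAM and MOG libraries, which reach 47.5.

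Whether Mt1 counted as differentially expressed depended on the fit and on the libraries used. Against SHAM its log2 fold change stayed between 0.49 and 0.80 over all fits at GB20 and between 0.52 and 0.80 at GV16, and 6 of 22 other fits called it at GB20 and 8 of 22 at GV16. DESeq2 on all 12 libraries called both (adjusted p = 0.00103 at GB20 and 0.000668 at GV16), with adjusted p from 6.04e-10 to 0.318 over all fits at GB20 and from 5.97e-10 to 0.269 at GV16. With the replicate number as a block, edgeR called both as well (adjusted p = 0.000181 at GB20 and 9.9e-05 at GV16). Against MOG, Mt1 was called at GV16 by 3 of 22 fits, those of DESeq2 (adjusted p = 0.017) and edgeR (adjusted p = 0.047) on the 6 libraries of the pair and the edgeR fit without a filter on low counts (0.0112); at GB20 only the fit without that filter called it (0.00567). Over all fits the adjusted p against MOG ran from 0.00567 to 0.854 at GB20 and from 0.0112 to 1 at GV16. The edgeR fit with the filter gave Mt1 5.66 prior degrees of freedom, against a median of 14.7 over the genes tested, so it relied more on Mt1's own spread between libraries; without the filter that figure was 1730.

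Without SHAM library 2 the Mt1 change against SHAM was 0.80 at GB20 (SE 0.153, adjusted p = 0.0437 by edgeR) and 0.80 at GV16 (SE 0.153, adjusted p = 0.042 by edgeR), so both were called. Without GB20 library 2, the highest of all, the change at GB20 was 0.49 against SHAM (adjusted p = 0.143 by edgeR) and 0.22 against MOG (adjusted p = 0.854 by edgeR), while that of GV16 against SHAM stayed at 0.66 and was called (adjusted p = 0.00849 by edgeR). Without GB20 library 3, the lowest of its group, both changes against SHAM were called, at 0.77 for GB20 (adjusted p = 0.0243 by edgeR) and 0.65 for GV16 (adjusted p = 0.0249 by edgeR). Other omissions gave no call against SHAM. Without SHAM library 3 the change was 0.52 in both (adjusted p = 0.118 for GB20 and 0.0683 for GV16 by edgeR). Without SHAM library 1 the change stayed about as large, at 0.672 for GB20 (SE 0.177) and 0.669 for GV16 (SE 0.178). The adjusted p was then 0.318 for GB20 and 0.228 for GV16 by edgeR. Without GV16 library 2 the change of GV16 was 0.565 (adjusted p = 0.269 by edgeR).

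**Figure D2:**
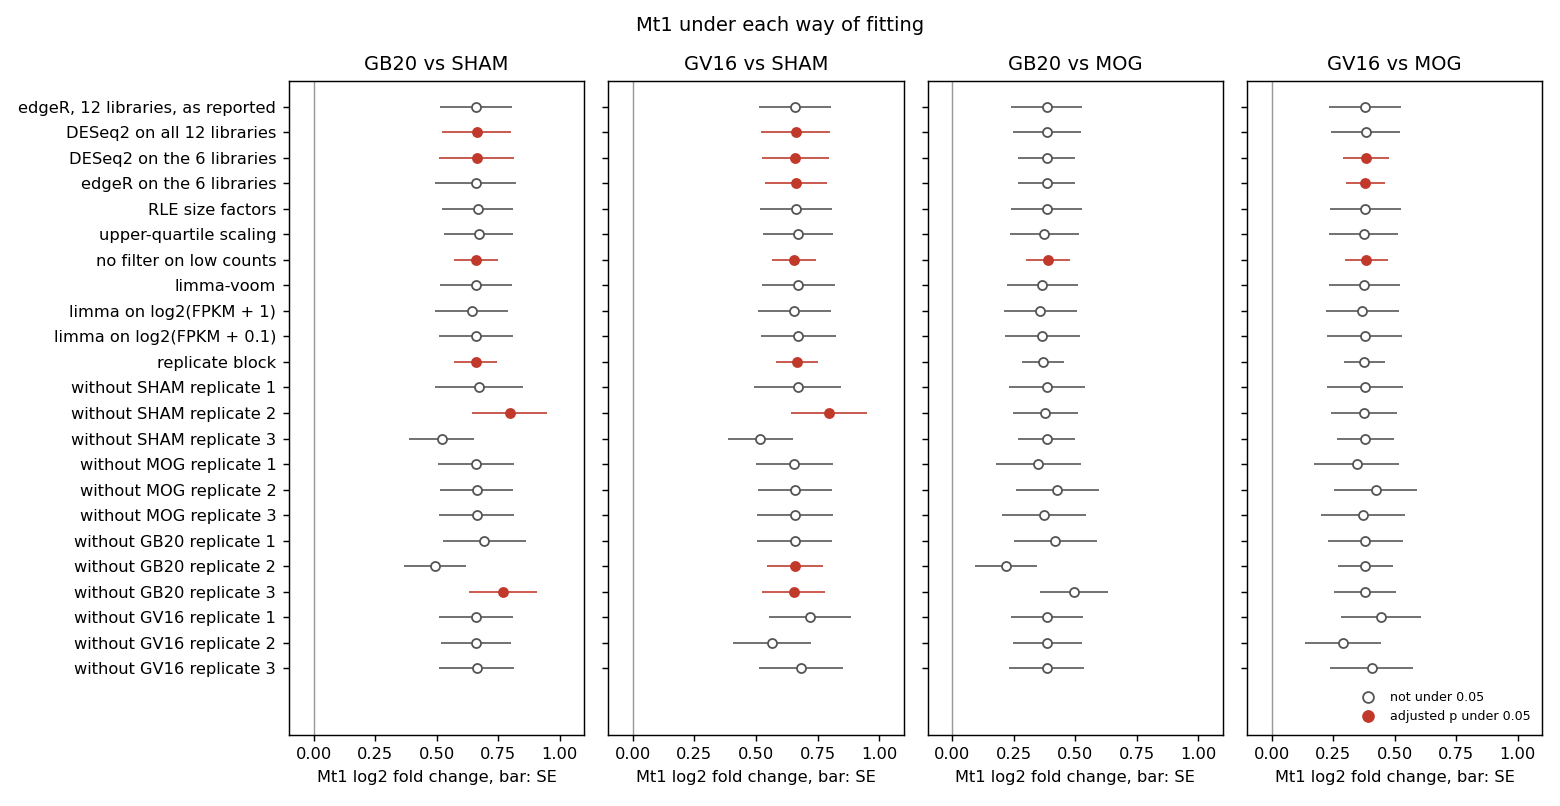
Log2 fold change of Mt1 (points, with SE bars) under the fit reported in the text and 22 other fits, for the needled groups against SHAM and against MOG; filled red points have an adjusted p under 0.05. The points lie to the right of 0 in every panel, between 0.22 and 0.80, and the fits differ in which of them are called.

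Mt2, the other widely expressed metallothionein, was at the floor of detection in the tables. Its counts were 4, 2 and 3 in the SHAM libraries, 7, 12 and 6 in those of MOG, 9, 5 and 12 in those of GB20 and 10, 15 and 10 in those of GV16, 95 counts in all against 9980 for Mt1. Every immunized library lay above every SHAM library. Because the filter asks for 0.602 CPM in 3 libraries, and 3 GV16 libraries, 1 of MOG, 1 of GB20 and 0 of SHAM reached it, the gene was tested because of the groups in which it was high, and its differences are a description.

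The fitted log2 fold change of Mt2 against SHAM was 1.46 in MOG (SE 0.575, adjusted p = 0.27 by edgeR), 1.47 in GB20 (SE 0.572, adjusted p = 0.402 by edgeR) and 2.02 in GV16 (SE 0.543, interval 0.9 to 3.15, adjusted p = 0.0985 by edgeR). No fit that gave it an adjusted p called it; DESeq2 gave none against SHAM, and edgeR on the 6 libraries tested it against SHAM in GV16 alone. With limma these changes were 1.22, 1.22 and 1.77 on log2(FPKM + 0.1) and 0.49, 0.49 and 0.78 on log2(FPKM + 1). The level of Mt2 is uncertain for a further reason: 432 of its 588 exonic bases (73.5%) lie inside Gm45774, a gene on the minus strand at chr8:94170748-94173412 that had 3 to 15 counts per library. The library kit named by the submitters does not mark strand, and how reads that fall in both genes were counted is not given, which leaves 156 bases belonging to Mt2 alone. Its FPKM of 0.804, the mean over 12 libraries, should therefore not be set against the 39.4 of Mt1. The exons of Mt1 and Mt3 overlap no other gene.

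Mt3, the metallothionein best known from neurons of the brain, showed no call in any comparison. Its CPM was 11.9, 14.4 and 7.49 in the SHAM libraries, 8.62, 11.4 and 8.41 in those of MOG, 12.3, 13.6 and 11 in those of GB20 and 10.6, 13.6 and 11.1 in those of GV16. SHAM held both the lowest and the highest value, and the libraries of each pair of groups overlapped. The fitted log2 fold change was -0.25 for MOG against SHAM (SE 0.189, adjusted p = 0.609 by edgeR), 0.37 for GB20 against MOG (SE 0.187, adjusted p = 0.636 by edgeR) and 0.31 for GV16 against MOG (SE 0.189, adjusted p = 0.992 by edgeR). For MOG against SHAM it moved to -0.019 without SHAM library 2 and to -0.47 without SHAM library 3, and for GV16 against MOG it ran from 0.20 to 0.46 with 1 library left out. Its level per length was 10.4 FPKM over all libraries. The ratio of Mt1 to Mt3 FPKM was 2.89 ± 0.425 in SHAM, 4.09 ± 0.481 in MOG, 4.04 ± 0.391 in GB20 and 4.25 ± 0.109 in GV16 (SD, n = 3). The lowest immunized library (MOG 2, 3.56) was slightly above the highest SHAM library (SHAM 3, 3.38). The ratio was not tested, and no share of other gene pairs stands beside it. For MOG against SHAM it joins log2 fold changes of Mt1 (0.28) and Mt3 (-0.25) that were not called. Mt4, the metallothionein of stratified epithelia and the fourth gene of the cluster, had a count of 0 in every library.

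Both Mt1 and Mt3 are short genes, with 1246 and 1066 merged exon bases, and short genes as a class differed between libraries. Their transcripts whose coding parts are shown above have 549 and 536 bases. The median log2 CPM of 846 genes of up to 1500 bases, relative to each gene's mean, was 0.022, 0.204 and -0.105 in the SHAM libraries, -0.016, -0.085 and -0.092 in those of MOG, 0.104, 0.074 and -0.025 in those of GB20 and -0.033, 0.07 and -0.048 in those of GV16. Mt3 was highest in SHAM library 2 and lowest in SHAM library 3, which were also the extremes of this measure. The median log2 fold change of these short genes was -0.10 for MOG against SHAM, 0.11 for GB20 against MOG, 0.054 for GV16 against MOG, 0.059 for GB20 against GV16, 0.0097 for GB20 against SHAM and -0.046 for GV16 against SHAM, against medians between -0.0041 and 0.0024 over all genes tested. The part of this in the Mt1 and Mt3 values was not tested.

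Markers of other cell types that carry metallothioneins were read in the same libraries. In bulk retina, fewer cells of a type and less RNA per cell cannot be told apart. The summed CPM of 10 pigment epithelium and choroid markers was 22.3, 27.8 and 19.9 in the SHAM libraries, 36.5, 51.1 and 37.8 in those of MOG, 40.4, 45.9 and 39.0 in those of GB20 and 23.3, 62.7 and 37.2 in those of GV16. All 10 were detected, with Ttr the most abundant (10.4 FPKM), and edgeR called 0 of the 9 tested in any comparison, while 4, 5 and 3 had an unadjusted p under 0.05 in MOG, GB20 and GV16 against SHAM. At that cutoff all genes tested numbered 2380, 1655 and 2000 of 18299. The median log2 fold change of the markers against SHAM was 0.28 in MOG, 0.55 in GB20 and 0.54 in GV16. Against MOG it was -0.0042 in GB20 and -0.027 in GV16, with 0 markers at an unadjusted p under 0.05 in either, beside 1464 and 968 of all genes. The part of these cells in the Mt1 values was not tested.

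**Figure D3:**
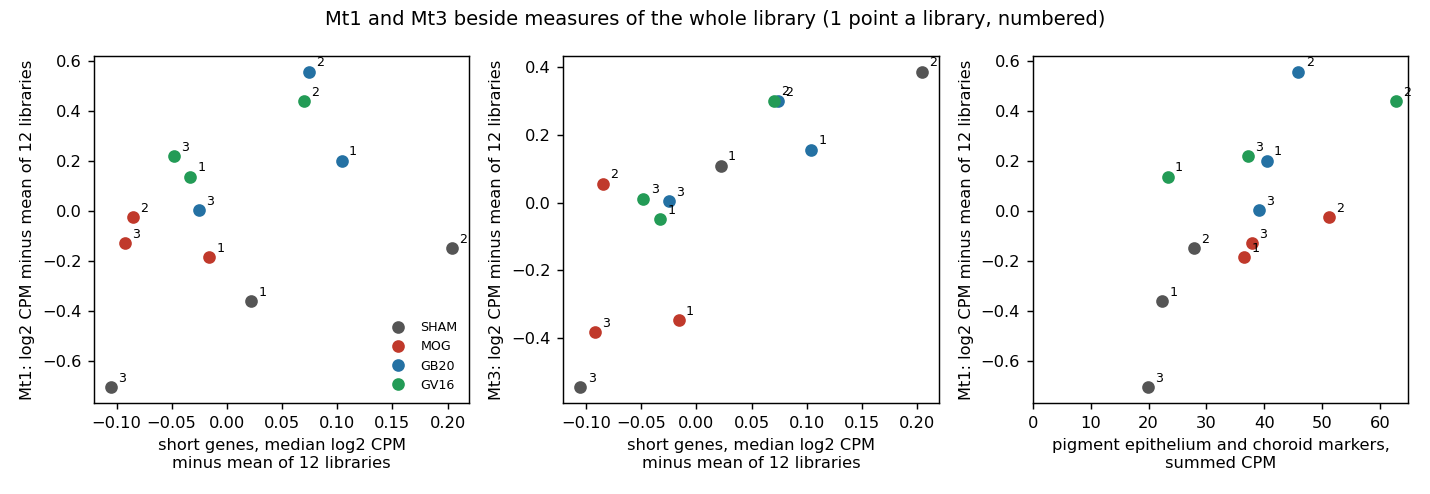
Log2 CPM of Mt1 (left and right) and Mt3 (middle), each minus its mean over the 12 libraries, against the median of 846 short genes (left and middle) or the summed CPM of 10 pigment epithelium and choroid markers (right); each point is a library, coloured by group and numbered. SHAM library 2 has the highest short-gene median (0.204) and SHAM library 3 the lowest (-0.105).

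Müller glia and astrocytes are the glial homes of metallothioneins. The 14 Müller glia markers summed to 5020 ± 211 CPM in SHAM, 4830 ± 273 in MOG, 4990 ± 123 in GB20 and 4990 ± 115 in GV16 (SD, n = 3), with Glul, glutamine synthetase, the most abundant at 588 FPKM. Their median log2 fold change against MOG was -0.0065 in GB20 and -0.014 in GV16, with 7 of 14 fitted above 0 in each. In each, 8 of 14 had an unadjusted p under 0.05, beside 1464 and 968 of all 18299 genes tested. Against SHAM 5, 5 and 3 did in MOG, GB20 and GV16, beside 2380, 1655 and 2000 of all genes. Aqp4, the water channel, rose in MOG against SHAM (log2 fold change 0.46) and fell in GB20 (-0.35) and GV16 (-0.34) against MOG; Crym moved the same way (0.60, -0.50 and -0.73). Car14, a membrane carbonic anhydrase, rose against MOG in GB20 (0.50) and GV16 (0.50), and Rlbp1, a retinoid carrier, fell in GV16 against SHAM (-0.36). The 6 astrocyte markers summed to 87.1 ± 4.4 CPM in SHAM, 123 ± 2.26 in MOG, 117 ± 12.6 in GB20 and 106 ± 6.93 in GV16, led by Gfap, which rose in MOG (log2 fold change 1.25) and in GB20 (1.15) against SHAM. In GV16 Gfap stood at 0.84 against SHAM and was not called (adjusted p = 0.0577 by edgeR). Gfap alone went from 23.1 CPM in SHAM to 54.9 in MOG, and the median over the 6 was 0.17 in MOG, 0.04 in GB20 and 0.10 in GV16 against SHAM, with 4 of 6 fitted above 0 in each. The share of glial RNA in the Mt1 values was not tested.

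Slc30a1 encodes ZnT1, the exporter at the plasma membrane and a classic MTF-1 target. It lies on chromosome 1 (chr1:191906767-191913247, plus strand) and 8.9% of its exonic bases are shared with 1700034H15Rik on the other strand. Its CPM ran from 33.9 to 41.4 over the 12 libraries, with means of 36.3 ± 1.95 in SHAM, 35.6 ± 1.48 in MOG, 38.9 ± 1.03 in GB20 and 37.7 ± 3.19 in GV16 (SD, n = 3). The lowest GB20 library (38.0) was above the highest MOG library (36.7), with a log2 fold change of 0.13 (SE 0.0816, interval -0.0416 to 0.296, adjusted p = 0.714 by edgeR). It was called in no comparison, and the interval for GB20 against SHAM, -0.0718 to 0.265, allows at most a 1.20-fold rise.

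Slc30a3 encodes ZnT3, which loads zinc into synaptic vesicles. The gene (chr5:31086106-31108237, minus strand) was counted at 2.72 to 4.77 CPM, and these extremes were both SHAM libraries. Its fitted log2 fold changes lay between -0.12 (GB20 against GV16) and 0.086 (GV16 against MOG), with SEs of 0.204 to 0.206 and adjusted p from 0.911 to 1 by edgeR. With 1 library left out, GB20 against GV16 ran from -0.219 to -0.00371 and GV16 against MOG from 0.00497 to 0.163.

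Slc39a14 encodes ZIP14, an importer of zinc, iron and manganese that inflammation raises in other tissues. The gene (chr14:70303469-70351425, minus strand) had CPM values of 28.0, 26.8 and 27.1 in SHAM and 29.6, 32.8 and 28.5 in MOG, so each MOG library was above each SHAM library. The log2 fold change was small at 0.15 (SE 0.0848, interval -0.0271 to 0.324, adjusted p = 0.48 by edgeR) and moved to 0.092 without MOG library 2. The needled groups fell between, at 28.6 ± 0.746 in GB20 and 29.4 ± 1.84 CPM in GV16 (SD, n = 3), and overlapped with MOG.

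Mtf1 encodes the zinc sensor itself (chr4:124802104-124849800, plus strand, 8.1% of exonic bases shared with 1110065P20Rik). Its CPM ran from 48.0 to 54.5 and its fitted log2 fold changes from -0.08 (GB20 against MOG) to 0.086 (MOG against SHAM). By mean CPM the order of the groups was MOG (52.4 ± 2.39), GV16 (50.9 ± 2.19), GB20 (49.5 ± 2.39) and SHAM (49.3 ± 0.633; SD, n = 3), and neighbours in that order differed by less than their spread.

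**Figure D4:**
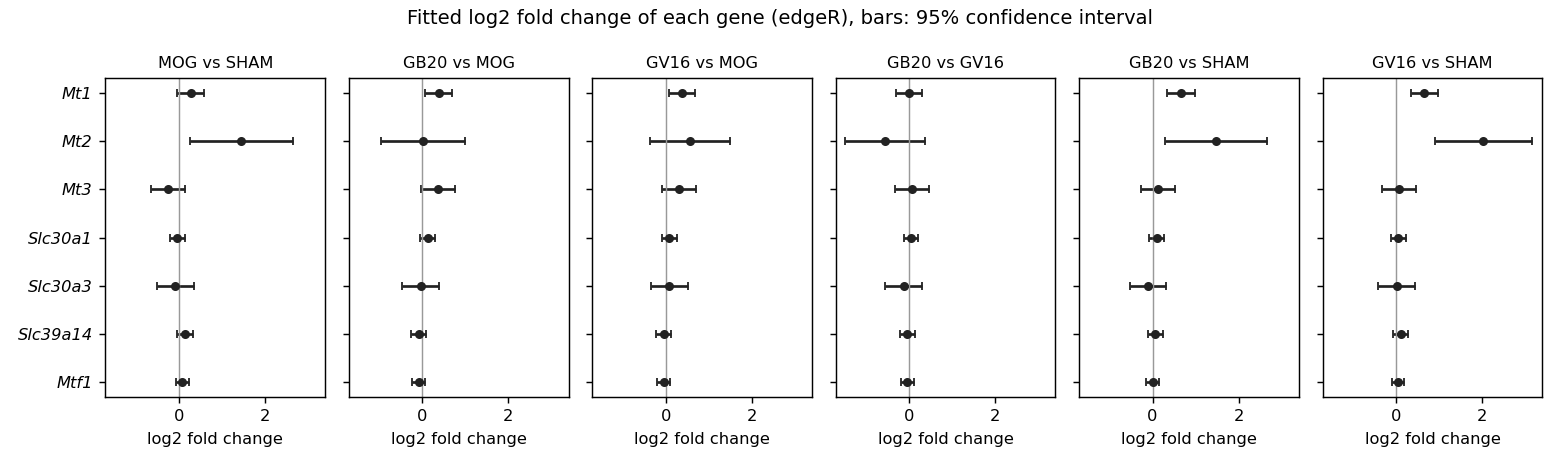
Fitted log2 fold change of each of the 7 genes in the 6 comparisons (edgeR, points) with the 95% confidence interval (bars). Intervals clear of 0 are those of Mt1 in GB20 and GV16 against SHAM and against MOG, and of Mt2 in all 3 immunized groups against SHAM, where Mt2 was tested because of its higher groups and is a description; none of these had an adjusted p under 0.05.

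Counted over the members, edgeR called 0 of 7 in each of the 6 comparisons. For MOG against SHAM the same test called 1.34% of all genes tested (245 of 18299), for GB20 against MOG 0.24%, for GV16 against MOG 0.164%, for GB20 against GV16 0.00546%, for GB20 against SHAM 0.344% and for GV16 against SHAM 0.656%. With 1 library left out the number of genes called ran from 91 to 426 for MOG against SHAM, from 14 to 116 for GB20 against SHAM and from 23 to 231 for GV16 against SHAM. At an unadjusted p under 0.05 the members numbered 1 (Mt2) for MOG against SHAM, 1 (Mt1) for GB20 and 1 (Mt1) for GV16 against MOG, 0 between the needling sites, and 2 (Mt1 and Mt2) for each needled group against SHAM, where Mt2 is a description because of how it came to be tested. At the same cutoff all genes tested numbered 2380, 1464, 968, 535, 1655 and 2000 of 18299, in the order MOG against SHAM, GB20 and GV16 against MOG, GB20 against GV16, and GB20 and GV16 against SHAM. DESeq2 on all 12 libraries called 1 (Mt1) in each of the comparisons of a needled group with SHAM and 0 in the other 4, as did edgeR with the replicate block, although DESeq2 gave Mt2 an adjusted p only between the needling sites, and limma-voom and limma on log2(FPKM + 1) called 0 in all 6.

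Groups whose libraries did not overlap were common in these data. For MOG against SHAM the groups were apart for 2 members (Mt2 and Slc39a14) and for 16.2% of all genes tested; for GB20 against MOG for 2 (Mt1 and Slc30a1) and 15.7%; for GV16 against MOG for 1 (Mt1) and 12.6%. Between GB20 and GV16 the counts were 0 members and 8.34% of genes. Against SHAM they were 2 (Mt1 and Mt2) in GB20 and the same 2 in GV16, with 12.7% and 14.5% of all genes. For Mt2, which passed the filter through its higher groups, this is a description.

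Across the wider families, nearly all zinc carriers passed the filter on low counts and none was called. Some of them stood low per length, such as Slc39a8 (0.212 FPKM) and Slc39a4 (0.195 FPKM). Of the 10 SLC30 exporters (ZnT) 9 were tested and of the 14 SLC39 importers (ZIP) 14, and edgeR called 0 in any of the 6 comparisons. At an unadjusted p under 0.05 there were 1 exporter and 2 importers for MOG against SHAM, 0 and 1 for GB20 against MOG, 0 and 1 for GV16 against MOG, 1 and 0 between the needling sites, 0 and 0 for GB20 against SHAM and 1 and 0 for GV16 against SHAM, beside 2380, 1464, 968, 535, 1655 and 2000 of all 18299 genes tested. The median log2 fold change of the exporters lay between 0.00037 and 0.054 and that of the importers between -0.031 and 0.024, against medians between -0.0041 and 0.0024 over all genes tested. Per length, Mt1 (39.4 FPKM) was followed by Slc39a3 (28.7), a plasma membrane importer, by Slc30a9 (16.8) and by Slc30a4 (12.8); Slc30a1 stood at 7.03, Slc39a14 at 2.72 and Slc30a3 at 1.34. Mt1 overlapped with Slc39a3 in SHAM (29.4 ± 5.61 and 30.6 ± 2.27 FPKM) and exceeded it in MOG (35.6 ± 1.9 and 27.6 ± 1.44), GB20 (46.4 ± 9.26 and 28.3 ± 0.901) and GV16 (46.4 ± 4.94 and 28.2 ± 1.25 FPKM; SD, n = 3). These FPKM divide by merged exon bases, which are 1246 for Mt1, while the Mt1 transcript used for the coding sequence has 549 bases. The standing of Mt1 beside other genes therefore depends on the length used. Slc30a8, the exporter of insulin granules, had 5 counts in all libraries together.

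**Figure D5:**
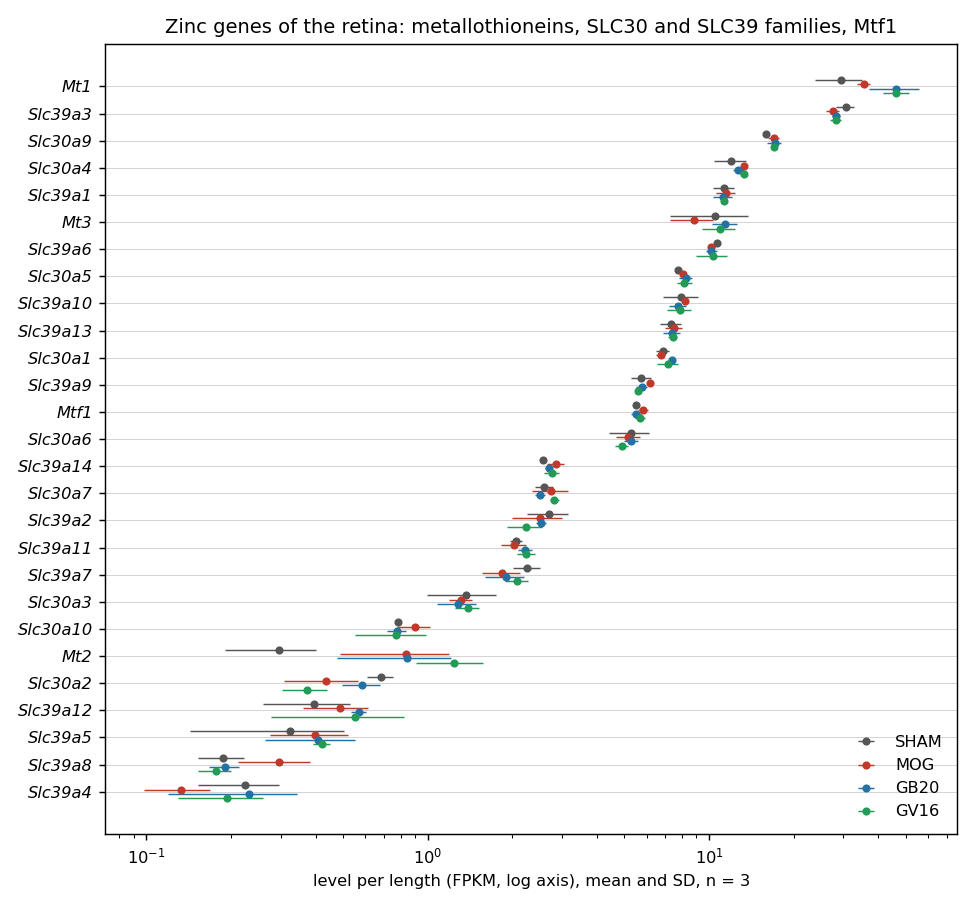
Level per length (FPKM, log axis) of the 27 tested metallothionein, SLC30, SLC39 and Mtf1 genes, as mean and SD of each group (n = 3), in order of the mean over 12 libraries. Mt1 shows the spread between groups from 29.4 to 46.4 FPKM, while most transporters overlap; the value of Mt2 is uncertain because most of its exonic bases are shared with an antisense gene.

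Other genes known to be controlled by MTF-1 were too few for a count of calls to say much. The list does not tell genes that MTF-1 raises from genes that it lowers, so its medians do not measure MTF-1 activity. Of 5 such genes outside the members, 0 were called in any comparison by edgeR, which called 0.00546% to 1.34% of all genes, 1 had an unadjusted p under 0.05 for MOG against SHAM and 1 each for GB20 and GV16 against MOG, and the median log2 fold change was -0.077 for MOG against SHAM, 0.053 for GB20 against MOG, 0.082 for GV16 against MOG, -0.029 for GB20 against GV16, -0.046 for GB20 against SHAM and -0.023 for GV16 against SHAM. In the order of these medians, 2380, 1464, 968, 535, 1655 and 2000 of all 18299 genes tested had an unadjusted p under 0.05. The most abundant of the 5, Selenow, a selenoprotein, had 154 ± 27.4 CPM in SHAM, 123 ± 7.91 in MOG, 150 ± 9.99 in GB20 and 146 ± 10.1 in GV16 (SD, n = 3). The 13 NRF2 antioxidant genes, led by Txn1, thioredoxin, also had 0 calls by edgeR, with 1 gene at an unadjusted p under 0.05 for MOG against SHAM and 0 in the other 5 comparisons, and medians between -0.045 and 0.044. Txn1 stood at 23.2 FPKM.

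Copper is the other metal that metallothioneins hold. Of 13 copper-handling genes 12 were tested, and Cp, ceruloplasmin, the ferroxidase that carries copper, was the gene called: it rose in MOG (log2 fold change 0.31, SE 0.07, adjusted p = 0.0194 by edgeR), GB20 (0.33, adjusted p = 0.0332 by edgeR) and GV16 (0.36, adjusted p = 0.00956 by edgeR) against SHAM. In the same comparisons, in that order, edgeR called 1.34%, 0.344% and 0.656% of all genes. Slc31a2, a copper transporter, was the most abundant of the list (118 FPKM), and Sco2 had no count. The median log2 fold change of the list lay between -0.012 and 0.10. At an unadjusted p under 0.05 there were 5 for MOG against SHAM, 5 for GB20 against MOG, 1 for GV16 against MOG, 0 between the needling sites, 2 for GB20 against SHAM and 3 for GV16 against SHAM. In that order all genes tested numbered 2380, 1464, 968, 535, 1655 and 2000 of 18299.

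Glucocorticoid-responsive genes, a class to which Mt1 and Mt2 also belong, had 16 tested. Of these edgeR called 1 for MOG against SHAM (1.34% of all genes), 2 for GB20 against MOG (0.24%), 1 for GV16 against MOG (0.164%), 0 between the needling sites (0.00546%), 0 for GB20 against SHAM (0.344%) and 2 for GV16 against SHAM (0.656%). In that order 4, 5, 5, 4, 7 and 6 had an unadjusted p under 0.05, beside 2380, 1464, 968, 535, 1655 and 2000 of all 18299 genes. Fkbp5, a chaperone of the glucocorticoid receptor, rose in GV16 against MOG (log2 fold change 0.66, adjusted p = 0.00395 by edgeR) and against SHAM (0.85, adjusted p = 7.62e-05 by edgeR). Tsc22d3, which encodes GILZ, fell in MOG against SHAM (-0.40, adjusted p = 0.0131 by edgeR) and rose in GB20 against MOG (0.42, adjusted p = 0.029 by edgeR). Per1, also a clock gene, rose in GB20 against MOG (0.53, adjusted p = 0.0337 by edgeR) and Zbtb16 in GV16 against SHAM (1.13, adjusted p = 0.0445 by edgeR). The other needled group moved the same way in each of these without a call. Fkbp5 stood at 0.21 against MOG and 0.40 against SHAM in GB20, and Zbtb16 at 0.96 against SHAM in GB20. In GV16 against MOG, Tsc22d3 stood at 0.29 and Per1 at 0.24. Sgk1 was the most abundant of the list (86.0 FPKM). The median over the list was 0.15 for GB20 against MOG and 0.12 for GV16 against MOG, with 14 and 13 of 16 fitted above 0. It was 0.0035 for MOG against SHAM (8 of 16 above 0), 0.13 for GB20 against SHAM (13 of 16) and 0.087 for GV16 against SHAM (10 of 16). Whether the Mt1 level follows glucocorticoids in these mice was not tested.

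The 18 STAT3 and reactive glia genes are a further class that shares its inducers with Mt1. In MOG against SHAM 9 rose and 0 fell, with a median log2 fold change of 0.92, while edgeR called 1.34% of all genes. The called genes of the list were Gfap (1.25), Stat3 (0.71), Osmr (1.36), Edn2 (1.73), Fgf2 (1.13), Serpina3n (2.08), A2m (1.51), C4b (1.73) and Cd44 (0.77). Vim was the most abundant (22.6 FPKM). Against MOG, Osmr, the oncostatin M receptor, fell in GB20 (-0.67, adjusted p = 0.0302 by edgeR) and in GV16 (-0.66, adjusted p = 0.0472 by edgeR), where Fgf2 fell too (-0.52, adjusted p = 0.0235 by edgeR). Against SHAM, 7 were called in GB20 (median 0.66) and 5 in GV16 (median 0.51), all as rises, beside 0.344% and 0.656% of all genes. The medians of the list against MOG were -0.23 in GB20 and -0.48 in GV16, where Mt1 stood at 0.38 in each, and against SHAM Mt1 stood at 0.66 in each. The relation of Mt1 to these genes was not tested.

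Ranked over 12277 tested genes of at least 5 CPM, the genes whose log2 CPM ran most like that of Mt1 over the 12 libraries were Selenbp1 (Pearson r = 0.906), Ddx50 (0.897), Asl (0.892), Ebpl (0.883) and Stxbp3 (0.879). Selenbp1, a selenium-binding protein, had mean CPM of 16.9 in SHAM, 30.6 in MOG, 47.3 in GB20 and 56.4 in GV16, and was not called against SHAM in GB20 (adjusted p = 0.111 by edgeR) or GV16 (adjusted p = 0.0507 by edgeR). Ebpl was called against SHAM in GV16 (adjusted p = 0.0144 by edgeR) and not in GB20 (adjusted p = 0.0737 by edgeR). The genes nearest to Mt3 were Ddrgk1 (0.952), Mrps33 (0.952), Ufc1 (0.94), Dtnbp1 (0.9) and Npm3 (0.899). Those nearest to Mt2 were Sav1 (0.937), Zfp970 (0.899), Fbxl5 (0.899), Patz1 (0.886) and Gm37891 (0.882), which rest on the few counts of Mt2. Of these, Sav1 was called against SHAM in GV16 (adjusted p = 0.049 by edgeR) and not in GB20 (adjusted p = 0.354 by edgeR). Those nearest to Slc39a14 reached lower values, with Pcdhgc5 (0.81), Zfp970 (0.777), Dtnb (0.764), Tmem176a (0.755) and B4galt1 (0.754). The libraries share their depth and length effects, so these are descriptions of likeness.

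The tested genes that flank the metallothionein cluster are given for comparison with Mt1. Bbs2, on one side, had a log2 fold change against SHAM of 0.093 in GB20 (SE 0.0721) and 0.073 in GV16 (SE 0.0722), and Ogfod1 beyond it -0.03 (SE 0.0676) and 0.12 (SE 0.0676). On the other side Nup93 stood at 0.12 (SE 0.0888) and 0.056 (SE 0.0895), and C78859 at -0.37 (SE 0.149) and -0.21 (SE 0.148). None of the 4 was called by edgeR in any comparison, with the lowest adjusted p at 0.437.

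Further marker lists describe the tissue. Cones were led by Opn1sw (159 FPKM) and amacrine and horizontal cells by Gad1 (30.9 FPKM), with 1 call among these lists, Opn1mw in GV16 against SHAM (log2 fold change 0.35). All 9 retinal ganglion cell markers, led by Sncg (58.0 FPKM), fell in MOG and in GV16 against SHAM and 3 of 9 (Pou4f2, Nefl and Thy1) in GB20 against SHAM, where all 9 had an unadjusted p under 0.05 and log2 fold changes from -0.92 to -0.45, with summed CPM of 802 ± 48.8 in SHAM, 450 ± 49.6 in MOG, 514 ± 8.14 in GB20 and 474 ± 92.0 in GV16. The others called among them were Rbpms, Pou4f1, Slc17a6, Nefm and Isl2. Of all genes tested, edgeR called 1.34% in MOG, 0.344% in GB20 and 0.656% in GV16 against SHAM. Microglia and macrophage markers, led by C1qa (7.03 FPKM), summed to 24.4 ± 3.73 CPM in SHAM and to 36.6 ± 2.28 in MOG, 36.1 ± 3.96 in GB20 and 36.7 ± 2.33 in GV16, with Csf1r called in MOG and GV16 and C1qa in MOG against SHAM. Endothelium and pericytes (Kdr, 15.3 FPKM), erythrocytes (Hba-a1, 6.11 FPKM) and the ciliary body, iris and cornea list (Col9a1, 8.52 FPKM) had 0 calls by edgeR. At an unadjusted p under 0.05 erythrocytes had 0 genes and the ciliary body list at most 1 of 4 tested. Of 9 endothelium and pericyte markers, 3 passed in each needled group against MOG and against SHAM. For MOG against SHAM and between the sites 1 did. All genes passing numbered 1464 (GB20) and 968 (GV16) against MOG and 1655 and 2000 against SHAM, of 18299. For MOG against SHAM they numbered 2380, and 535 between the sites. In GB20 and GV16 the median of the 9 was -0.14 and -0.12 against MOG and -0.20 and -0.14 against SHAM. T cells (Lck, 0.319 FPKM, 1 of 7 tested) and lens (Cryaa, 0.405 FPKM, 2 of 8 tested) were barely detected and had 0 calls by edgeR, with 0 genes at an unadjusted p under 0.05. Lens markers summed to 16.1 CPM in SHAM library 2 and 8.76 in GB20 library 2 and to at most 2.12 in the other libraries.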

How the data were processed

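Retinal RNA of 12 libraries (4 groups of 3) was sequenced as paired reads. Per the labels, the reads were aligned with HISAT2 (2.0.5) to mm10; per the methods, gene counts came from featureCounts. The authors deposited raw counts per gene and FPKM, counts scaled by merged exon length and library size; both were used as deposited. Library totals ran from 15860278 to 19194280. The strand setting and the treatment of reads matching several genes or places are not stated in those sources. Identifiers were named from GENCODE vM21, which held 54409 of 54532; the lengths implied by FPKM lay within 2% of its merged exon lengths for 96.3% of 4073 genes checked.

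Counts were filtered (filterByExpr, minimum count 10, 4 groups), TMM-scaled and fitted with edgeR 4.0.16 (quasi-likelihood, robust, 1 mean per group, 8 residual degrees of freedom) in R 4.3.3, with Benjamini-Hochberg adjustment over the 18299 genes tested and a threshold of 0.05. Confidence intervals are at 95%. CPM are scaled by TMM. Alternatives were DESeq2 1.42.0, limma 3.58.1 (voom, and log2 FPKM with a pseudocount of 1 or 0.1), RLE and upper-quartile scaling, no filter, the 6 libraries of a pair, a replicate term, and each library left out. The steps were tested on simulated data. Levels between genes were compared in FPKM. Figures were drawn with matplotlib 3.10.9 under Python 3.11.15.

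Members and gene lists were chosen with earlier results of these data known. Genes named are the members; the called genes and the most abundant gene of each list reported (at most 10 called per comparison, by p); genes of a marker list without a count; the 5 genes of highest Pearson r with Mt1, Mt2, Mt3 and Slc39a14 among those of at least 5 CPM (log2 CPM, prior count 2); and 2 tested genes on each side of the cluster. Slc30a4, Slc30a8 and Mt4 were added to describe the zinc families, and genes that share exonic bases with a member to describe its counts.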

Additional observations from a re-analysis of the deposited data

How the results depend on the processing

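Counts of calls moved between fits. In place of 0, the count was 1 (Mt1) for GB20 against SHAM under DESeq2 on all 12 libraries, DESeq2 on the 6 libraries, no filter on low counts and the replicate block, and for GV16 against SHAM under these and edgeR on the 6 libraries; with 1 library left out it ran from 0 to 1 in both. It was 1 for GB20 against MOG without the filter, and 1 for GV16 against MOG without the filter and under DESeq2 or edgeR on the 6 libraries. Without the filter the fit leans almost wholly on the trend over all genes; for the other fits the cause was not tested. RLE or upper-quartile scaling, limma-voom and limma on log2 FPKM called 0 members throughout. Whether the replicate numbers pair the libraries is not stated, and the data are mixed. The correlation of deviations between equal numbers ran from -0.129 to 0.481, with 8 of 18 over 0.1. It was over 0.1 in all 3 pairs of SHAM with GB20 (0.181, 0.481 and 0.437) and of SHAM with GV16 (0.182, 0.255 and 0.248), and not in all pairs of any other groups, and SHAM 1 correlated slightly better with GB20 3 (0.188) than with GB20 1. With the replicate block, Mt1 was called against SHAM with a log2 fold change of 0.66 in GB20 (edgeR, adjusted p = 0.000181) and 0.67 in GV16 (edgeR, adjusted p = 9.9e-05), and all genes called went from 245 to 404, 44 to 73, 30 to 47, 1 to 1, 63 to 182 and 120 to 236 in the order MOG against SHAM, GB20 and GV16 against MOG, GB20 against GV16, and GB20 and GV16 against SHAM. In that order all genes called were 539, 140, 73, 8, 282 and 395 without the filter, 117, 14, 6, 0, 14 and 36 with limma on log2(FPKM + 1), 106, 15, 5, 0, 11 and 39 with a pseudocount of 0.1, and 316, 57, 43, 5, 152 and 202 with DESeq2. On the 6 libraries they were 240, 126, 57, 4, 124 and 125 with DESeq2 and 196, 118, 48, 3, 66 and 66 with edgeR. With 1 library left out they ran from 91 to 426, 13 to 83, 10 to 38, 0 to 4, 14 to 116 and 23 to 231.

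Of 921 refits of the 42 member changes, 871 kept direction with no change of call (10 of these are DESeq2 fits that gave Mt2 no adjusted p), 18 gained a call, all of Mt1, and 32 turned direction, all of changes of at most 0.13 in size. Mt1 between GB20 and GV16 was -0.00023 with DESeq2 on the 6 libraries, -0.0112 with limma-voom, -0.0113 and -0.0117 with limma on FPKM, -0.0084 with the block, and from -0.16 to 0.12 with 1 library left out. Mt2 for GB20 against MOG was -0.0012 with a pseudocount of 0.1 and from -0.34 to 0.40 with 1 library left out. The other turns came only from leaving out 1 library. Mt3 ran from -0.0115 to 0.18 for GB20 against GV16, from -0.099 to 0.35 for GB20 against SHAM and from -0.16 to 0.29 for GV16 against SHAM. Slc30a1 ran from -0.069 to 0.0083 for MOG against SHAM and from -0.0194 to 0.093 for GV16 against SHAM. Slc30a3 ran from -0.28 to 0.089 for MOG against SHAM, -0.13 to 0.081 for GB20 against MOG, -0.31 to 0.052 for GB20 against SHAM and -0.19 to 0.18 for GV16 against SHAM. Slc39a14 ran from -0.088 to 0.0126 for GV16 against MOG and from -0.087 to 0.00146 for GB20 against GV16, and Mtf1 from -0.036 to 0.0223 for GB20 against SHAM. The cause was not tested. With 2 to 15 counts per library, Mt2 allows no fine comparison at this depth.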
